A study of Mus musculus with 9 samples.

Results

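The transcription regulators that set beige against white identity of fat cells were followed through beige differentiation in culture. The set is 10 genes chosen by symbol: Prdm16, Ebf1, Ebf2, Ebf3, Zfp423, Zfp516, Ehmt1, Tle3, Tbx15 and Irf4. Each symbol had exactly 1 row in the table of 55359 genes, and all 10 were among the 14649 genes with enough counts to be tested. The cells were mouse adipocyte precursors isolated from the inguinal white fat (iWAT), a subcutaneous depot known for its capacity to form beige fat. There were 3 RNA-seq libraries at day 0, before induction, 3 at day 4 and 3 at day 8. Cells of days 4 and 8 had first received dexamethasone, the phosphodiesterase inhibitor 3-isobutyl-1-methylxanthine, indomethacin, insulin, triiodothyronine and rosiglitazone, an agonist of PPARγ. After the first days a maintenance medium without dexamethasone, indomethacin and the phosphodiesterase inhibitor was used, so time and media cannot be told apart. No genotype, strain, sex or age is given in the labels, and the day 0 cells received no treatment.

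Beige adipocytes are fat cells that burn fuel for heat and arise within white depots. PRDM16 is a zinc finger coregulator that binds C/EBPβ and PPARγ to raise thermogenic genes, and it works with the histone methyltransferase EHMT1. EBF2 marks brown and beige precursors and helps PPARγ reach brown-selective genes, ZFP516 binds the Ucp1 promoter, and IRF4 partners PGC-1α. On the other side, ZFP423 commits precursors to the fat lineage and, in white adipocytes, holds thermogenic genes down by acting on EBF2. TLE3, a corepressor of the Groucho family, works with PPARγ in white adipocytes and competes with PRDM16.

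By day 8 regulators of the thermogenic and of the white side had each moved in both directions. Irf4, Zfp423 and Ebf2 were higher than at day 0, while Ehmt1, Zfp516, Tle3, Tbx15 and Ebf3 were lower. Prdm16 and Ebf1 did not pass the test in any comparison. Zfp423, a factor of fat cell commitment and a repressor of thermogenic genes in white adipocytes, rose 5.28-fold. Zfp516 and Ehmt1, both on the thermogenic side, fell to 0.419 and 0.497 of their day 0 levels. Also on the thermogenic side, Ebf2 rose 2.43-fold and Irf4 went from 2 counts at day 0 to 477 at day 8. Tle3, on the white side, fell to 0.629 of its day 0 level. The day 8 call of Ebf3 held in 9 of 15 alternatives.

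Promoter sequences are shown for the 2 members with the largest rises, for Prdm16, which did not pass, and for Ehmt1, which fell, since the results turn on these 4 genes. They are the 250 bases before the annotated start, from RefSeq on build GRCm38.p6, printed 5′ to 3′ on the gene's strand. This build differs from that of the counts. Starts were used for 7 of the 10 members (9 starts), and none for Ebf2, Zfp516 and Tbx15. Capitals mark matches, on either strand, to TATAAA (the TATA box), TTNNGNAA (a C/EBP-type site) or AGGTCA (a core element of nuclear receptors such as PPARγ). ACANNNTGT, a letter pattern of the glucocorticoid receptor, had no match in these 5 windows and occurs in 5.84% of 32851 promoters of the same length.
Irf4, chr13:30748983-30749232, plus strand: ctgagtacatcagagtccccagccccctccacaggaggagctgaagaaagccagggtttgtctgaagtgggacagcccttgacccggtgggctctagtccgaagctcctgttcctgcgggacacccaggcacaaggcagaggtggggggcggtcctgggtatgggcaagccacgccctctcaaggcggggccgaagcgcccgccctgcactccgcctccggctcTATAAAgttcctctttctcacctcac
Zfp423, first start, chr8:87959596-87959845, minus strand: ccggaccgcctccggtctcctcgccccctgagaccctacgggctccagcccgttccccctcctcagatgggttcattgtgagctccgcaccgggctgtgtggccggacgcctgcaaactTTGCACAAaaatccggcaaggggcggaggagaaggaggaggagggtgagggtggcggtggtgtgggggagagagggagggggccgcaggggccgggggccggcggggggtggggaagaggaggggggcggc
Zfp423, second start, chr8:87804440-87804689, minus strand: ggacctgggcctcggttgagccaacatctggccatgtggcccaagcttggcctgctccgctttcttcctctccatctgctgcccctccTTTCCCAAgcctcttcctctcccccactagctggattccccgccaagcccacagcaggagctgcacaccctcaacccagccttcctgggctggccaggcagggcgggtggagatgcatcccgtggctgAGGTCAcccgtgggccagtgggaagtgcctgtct
Prdm16, chr4:154636874-154637123, minus strand: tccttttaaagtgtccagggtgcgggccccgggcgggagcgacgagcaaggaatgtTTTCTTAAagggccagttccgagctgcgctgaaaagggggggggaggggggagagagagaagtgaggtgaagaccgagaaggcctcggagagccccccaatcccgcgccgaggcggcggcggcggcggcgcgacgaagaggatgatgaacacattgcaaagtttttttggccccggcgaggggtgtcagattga
Ehmt1, chr2:24919610-24919859, minus strand: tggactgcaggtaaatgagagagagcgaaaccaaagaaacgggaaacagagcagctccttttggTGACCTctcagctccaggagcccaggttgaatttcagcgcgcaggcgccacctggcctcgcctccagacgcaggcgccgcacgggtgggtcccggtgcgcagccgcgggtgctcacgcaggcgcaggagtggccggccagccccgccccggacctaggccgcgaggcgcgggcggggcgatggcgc

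The Irf4 window holds TATAAA beginning 26 bases before the start, and 12.4% of all promoters hold those letters. TTNNGNAA occurs once at each Zfp423 start and once before Prdm16, against 36.8% of promoters with a match. AGGTCA occurs once at the second Zfp423 start and once before Ehmt1, a gene that moved the other way, against 14% of promoters. CpG pairs numbered 11 before Irf4, 18 and 6 before the Zfp423 starts, 22 before Prdm16 and 26 before Ehmt1. In that order, 64.4%, 78.3%, 49.6%, 85.2% and 90.4% of promoters had fewer. These matches describe letters only.

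Values below are CPM, which relate a gene's count to 1e6 counts of the library total after scaling (trimmed mean of M-values, TMM), with mean ± SD over n = 3 libraries per day. Total counts per library ran from 26387408 to 31474490, and the members held between 478 and 9961 counts per day over the 3 libraries, apart from Irf4. Day 4 replicate 2 stood apart, with a score of 13.7 on the first principal component against 84.6 and 69.5 for its day and -138 to -135 at day 0. For 9 of the 10 members it lay between the day 0 mean and the mean of the other day 4 libraries, the exception being Ebf1. Scaling by total counts in place of TMM lowers the median log2 fold change over all genes from -0.01 to -0.34 (day 4 against day 0) and from 0.03 to -0.33 (day 8 against day 0). Summed CPM of 8 fat cell markers went from 55.0 to 82.3 at day 0 to 31074 to 34690 at day 8, and that of 7 beige and brown markers from 1.45 to 1.52 to 1422 to 2349, with Ucp1 and Cox8b at 0 in all day 0 libraries. Summed CPM of 8 progenitor markers went from a range of 2244 to 2419 to one of 669 to 899. In such bulk samples fewer cells of a type and less RNA per cell cannot be told apart. The labels do not say that replicates were separate cultures or animals, so p-values reflect only how these samples scatter, and that scatter may be technical.

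Of the 10 members, 3 were higher and 3 lower at day 4 than at day 0. Over all tested genes 54.6% were called in that comparison, 28.6% higher and 26% lower. At day 8 against day 0, 3 members were higher and 5 lower, where 63.4% of all genes were called, 33.5% higher and 29.9% lower. Between day 4 and day 8 no member rose and 2 fell, Tbx15 and Zfp516, against 22.4% of all genes called, 11.7% higher and 10.8% lower. The shares of members called are close to these backgrounds, so their number is not a result about the set. The median log2 fold change of the members was 0.02, -0.11 and -0.16 in these comparisons, and that over all genes -0.01, 0.03 and 0.00. The day 4 and day 8 comparisons with day 0 share their day 0 libraries.

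**Figure D1:**
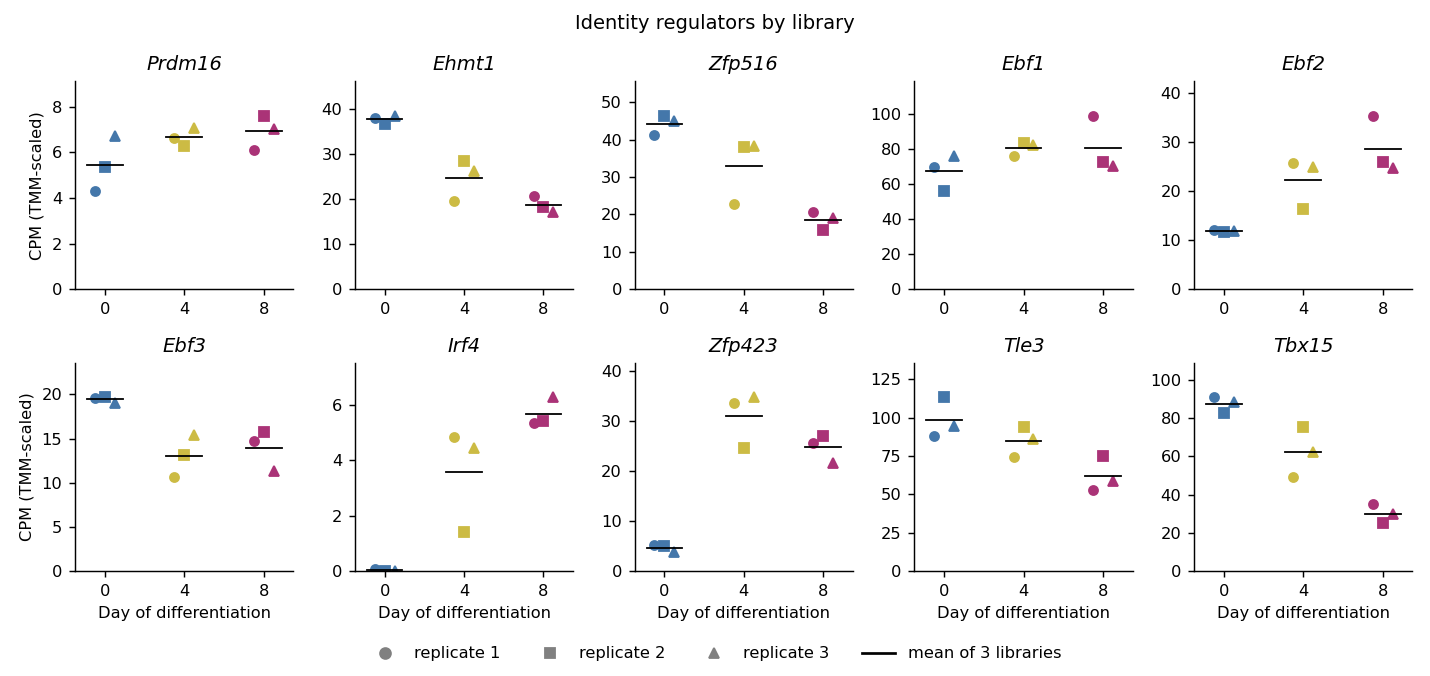
CPM of each member (vertical axis, from 0, own scale per gene) by day of differentiation; each symbol is 1 library and the black bar the mean of 3. Irf4 and Zfp423 leave a low day 0 level, Tbx15, Ehmt1, Zfp516 and Tle3 descend, and Prdm16 and Ebf1 overlap between day 0 and day 8.

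Prdm16, the coregulator at the centre of beige identity, was transcribed before induction and stayed near that level. Its CPM was 4.31, 5.34 and 6.72 at day 0, 6.63, 6.28 and 7.09 at day 4, and 6.11, 7.61 and 7.04 at day 8. The days overlapped in each comparison. The log2 fold change was 0.29 (SE 0.21, 95% interval -0.18 to 0.76, adjusted p = 0.269) at day 4 and 0.34 (SE 0.21, interval -0.12 to 0.81, adjusted p = 0.178) at day 8 against day 0, and 0.05 (interval -0.41 to 0.52, adjusted p = 0.875) between days 4 and 8. A rise up to 1.75-fold by day 8 therefore lies within the interval. With total counts both differences from day 0 turned to slightly below 0, -0.04 and -0.02, and did not pass.

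Prdm16os is a transcript annotated on the opposite strand beside Prdm16, and it did change. It had 0, 0 and 1 counts at day 0, 25, 25 and 23 at day 4, and 49, 45 and 44 at day 8. Groups did not overlap, and day 8 libraries were all above day 4. The ratio to day 0 was 96.6 at day 4 (95% counting interval 16.8 to 3867) and 167 at day 8 (29.6 to 6659), resting on 1 count at day 0. Without day 0 replicate 3, which held that count, the gene was at least 21.5-fold and at least 37.3-fold higher, taking 3 counts over day 0 as the floor. Leaving out day 0 replicate 1, the ratios were 61.4 and 106. Between days 4 and 8 it did not pass (log2 fold change 0.79, SE 0.39, adjusted p = 0.166). The exons of the pair share 0 bases in GENCODE M21, although the strand setting of the counting is not given. Prdm16os passed the filter on low counts only through days 4 and 8.

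Ehmt1, the histone methyltransferase that works with PRDM16, fell. It was at 38.0, 36.5 and 38.4 CPM at day 0, 19.5, 28.4 and 26.2 at day 4, and 20.7, 18.3 and 17.1 at day 8. All libraries of days 4 and 8 lay below those of day 0. Against day 0 the log2 fold change was -0.61 (SE 0.16, adjusted p = 0.00778) at day 4 and -1.01 (SE 0.16, adjusted p = 0.000283) at day 8. From day 4 to day 8 it was -0.40 (interval -0.75 to -0.05, adjusted p = 0.0906), which passed without day 4 replicate 1, the lowest library of its day (-0.55, adjusted p = 0.019). Its paralog Ehmt2, the other enzyme of the pair, was at 183 ± 8.78 CPM at day 0 and 154 ± 23.0 CPM at day 8 (log2 fold change -0.25, SE 0.14, adjusted p = 0.136). Ehmt2 passed with total counts (adjusted p = 0.00299), without day 4 replicate 2 (0.032) and without day 8 replicate 2 (0.0357), each time as lower. The difference between the paralogs was not tested.

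Zfp516, a cold-responsive zinc finger activator of Ucp1, fell by day 8. CPM were 41.2, 46.4 and 45.1 at day 0, 22.7, 38.2 and 38.4 at day 4, and 20.7, 15.9 and 19.1 at day 8. Replicate 1 of day 4 alone was near the day 8 range. The difference at day 4 did not pass (log2 fold change -0.42, SE 0.20, interval -0.86 to 0.02, adjusted p = 0.0962), but did without day 4 replicate 2 (-0.53, adjusted p = 0.0439) and with total counts (-0.73, adjusted p = 0.0186). At day 8 it was -1.25 (SE 0.20, adjusted p = 0.000324) against day 0 and -0.84 (SE 0.20, adjusted p = 0.0159) against day 4. The latter call was lost on leaving out day 4 replicate 3 (adjusted p = 0.0625) or day 8 replicate 2 (0.0607).

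Irf4, which partners PGC-1α in thermogenic fat, was close to absent at day 0 and present in every library from day 4. Counts were 2, 0 and 0 at day 0, 116, 39 and 113 at day 4, and 154, 144 and 179 at day 8. Mean CPM was 3.57 ± 1.87 and 5.68 ± 0.516 on the later days. All libraries of day 8 lay above those of day 4, where replicate 2 was lowest at 1.42 CPM. The ratio of pooled counts to day 0 was 177 at day 4 (95% counting interval 48.6 to 1472) and 289 at day 8 (79.7 to 2396). The edgeR test, which does not use these pooled ratios, gave adjusted p = 2.63e-05 at day 4 and 1.1e-05 at day 8. Without day 0 replicate 1, which held both counts, Irf4 was at least 75.1-fold higher at day 4 and at least 123-fold higher at day 8, with the same floor. The ratios were 118 and 193 without day 0 replicate 3. From day 4 to day 8 the log2 fold change was 0.67 (SE 0.45, interval -0.31 to 1.66, adjusted p = 0.293). Irf4 passed the filter on low counts only through days 4 and 8, the days on which it is high.

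Irf4 is also a gene of B lymphocytes and of macrophages and dendritic cells. Of 6 B lymphocyte markers, Cd79b and Ms4a1 had no counts on any day and Pax5 none after day 0, while the summed CPM of the list went from a range of 0.13 to 0.35 at day 0 to one of 4.29 to 10.1 at day 8. That sum was mostly Ighm, at 0.0817 ± 0.0752 CPM at day 0 and 6.20 ± 3.34 CPM at day 8. The leukocyte marker Ptprc had 19, 6 and 13 counts on the 3 days. The sum over 8 macrophage and dendritic cell markers spanned 37.5 to 84.9 CPM at day 0, 50.1 to 69.7 at day 4 (Itgax at 0) and 8.85 to 45.9 at day 8. These lists' part in the Irf4 result was not tested.

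Ebf1, Ebf2 and Ebf3 encode closely related helix-loop-helix factors, and each took its own course. Ebf2 rose, from 12.0, 11.6 and 11.8 CPM at day 0 to 25.6, 16.4 and 24.8 at day 4 and 35.3, 25.9 and 24.6 at day 8. Day 0 libraries were tightly grouped and below all later ones. Its log2 fold change was 0.91 (SE 0.20, adjusted p = 0.00303) at day 4 and 1.28 (SE 0.20, adjusted p = 0.000284) at day 8, with 0.36 (SE 0.20, adjusted p = 0.205) between them. In GENCODE M21 6.12% of the Ebf2 exon bases are shared with Gm10860 on the opposite strand, which had 0 counts. Ebf3 shares 3.85% with Gm45278 (opposite strand, 11 counts over all libraries) and Prdm16 1.17% with B230104I21Rik (opposite strand, 0 counts). Ehmt1 shares 0.259% with Gm37139 (same strand, 2 counts).

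Ebf1, which acts in adipogenesis and in early B cells, was the most abundant EBF transcript throughout. It was at 70.0, 56.4 and 76.0 CPM at day 0, 76.3, 83.4 and 82.3 at day 4, and 99.1, 72.5 and 70.2 at day 8. Days 0 and 8 overlapped. Its log2 fold change was 0.26 (SE 0.16, interval -0.10 to 0.62, adjusted p = 0.203) at day 4 and 0.26 (SE 0.16, interval -0.11 to 0.62, adjusted p = 0.192) at day 8, and with total counts -0.07 and -0.10, without passing.

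Ebf3 fell, from 19.6, 19.7 and 19.1 CPM at day 0 to 10.6, 13.1 and 15.4 at day 4 and 14.7, 15.7 and 11.3 at day 8. No later library reached the day 0 range. Relative to day 0 the change was -0.58 (log2, SE 0.18, adjusted p = 0.0193) at day 4 and -0.48 (SE 0.18, adjusted p = 0.0348) at day 8. The day 4 call was lost without day 0 replicate 1 (adjusted p = 0.0529), day 0 replicate 2 (0.0546) or day 4 replicate 1 (0.0717). The day 8 call was lost without any 1 day 0 library (0.0664 to 0.0777), day 8 replicate 1 (0.051) or day 8 replicate 3 (0.136), and with no filter on low counts (0.0581).

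**Figure D2:**
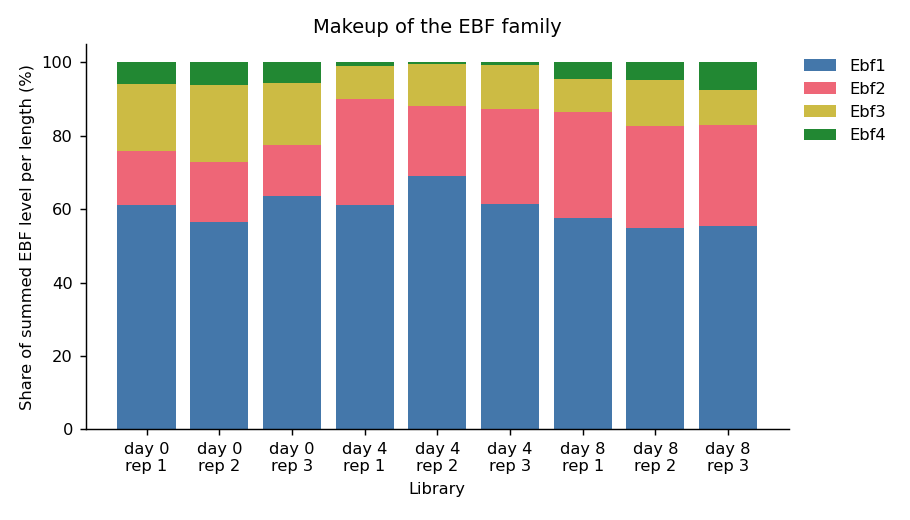
Share of each EBF gene in the summed EBF level per exon length (percent, vertical axis) in each of the 9 libraries; the stacked shares make up the whole. The Ebf2 share is above 27% in every day 8 library and under 17% in every day 0 library, and the Ebf4 share nearly vanishes at day 4.

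Per exon length, the EBF transcripts can be set side by side. Ebf1 held 60.4% ± 3.63 of the summed level at day 0, 63.8% ± 4.49 at day 4 and 56.0% ± 1.38 at day 8. Ebf2 had a share of 15.0% ± 1.25, 24.6% ± 5.06 and 28.0% ± 0.762 on those days, and that of Ebf3 18.6% ± 2.03, 10.9% ± 1.64 and 10.3% ± 1.94. Ebf2 and Ebf3 thus exchanged rank between day 0 and the later days, where their shares did not overlap within a day. The remaining family member, Ebf4, held 5.94% ± 0.375, 0.723% ± 0.249 and 5.71% ± 1.65.

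Zfp423, the zinc finger factor of fat cell commitment and of white identity, rose strongly by day 4. Its CPM was 5.23, 5.08 and 3.76 at day 0, 33.7, 24.6 and 34.7 at day 4, and 25.6, 27.0 and 21.6 at day 8. Every later library lay far above every day 0 library. The log2 fold change was 2.72 (SE 0.20, adjusted p = 2.02e-06) at day 4 and 2.40 (SE 0.20, adjusted p = 4.2e-06) at day 8, the largest of the members besides Irf4. Between days 4 and 8 it was -0.32 (SE 0.18, interval -0.73 to 0.08, adjusted p = 0.224), and without day 4 replicate 2, the lowest library of that day, -0.52 (adjusted p = 0.0457).

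Its close relative Zfp521, which opposes fat cell formation and antagonises EBF1, moved the other way. Zfp521 was at 70.1, 71.2 and 88.4 CPM at day 0, 9.14, 28.0 and 17.3 at day 4, and 4.79, 3.43 and 5.01 at day 8. The 3 days did not overlap. Zfp521 changed on the log2 scale by -2.08 (SE 0.33, adjusted p = 0.0004) at day 4 and -4.12 (SE 0.36, adjusted p = 6.58e-06) at day 8 against day 0, and -2.04 (SE 0.34, adjusted p = 0.0033) between days 4 and 8. Per exon length the order of the pair turned over: mean CPM per kb was 10.9 for Zfp521 and 0.836 for Zfp423 at day 0, and 0.627 and 4.42 at day 8.

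Tle3, the Groucho corepressor of the white program, was lower at day 8 than at day 0. It was at 88.0, 113 and 94.8 CPM at day 0, 74.1, 94.2 and 86.3 at day 4, and 52.6, 74.7 and 58.7 at day 8. Days 0 and 4 overlapped, and days 0 and 8 did not. The log2 fold change was -0.22 (SE 0.16, interval -0.58 to 0.15, adjusted p = 0.285) at day 4, -0.67 (SE 0.17, adjusted p = 0.00465) at day 8 against day 0 and -0.45 (SE 0.16, interval -0.82 to -0.09, adjusted p = 0.0716) between days 4 and 8. With total counts the day 4 difference passed (-0.54, adjusted p = 0.0192). The difference between days 4 and 8 passed without day 4 replicate 1 (adjusted p = 0.0427) or day 8 replicate 2 (0.0397), and with the replicate block (0.0239).

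Tbx15, a T-box factor that is selective for particular fat depots, fell in both intervals. CPM were 90.8, 82.9 and 88.5 at day 0, 49.2, 75.4 and 62.4 at day 4, and 35.0, 25.0 and 30.1 at day 8. The 3 days did not overlap. The log2 fold change was -0.49 (SE 0.17, adjusted p = 0.0342) at day 4, -1.54 (SE 0.18, adjusted p = 3.55e-05) at day 8 against day 0 and -1.05 (SE 0.18, adjusted p = 0.0032) from day 4 to day 8. The day 4 call was lost with the replicate block (adjusted p = 0.0606) and without day 0 replicate 1 (0.0889), 2 (0.0599) or 3 (0.0819), day 4 replicate 1 (0.121) or 3 (0.0888), or day 8 replicate 3 (0.0503). The day 8 calls held in all 15 alternatives.

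**Figure D3:**
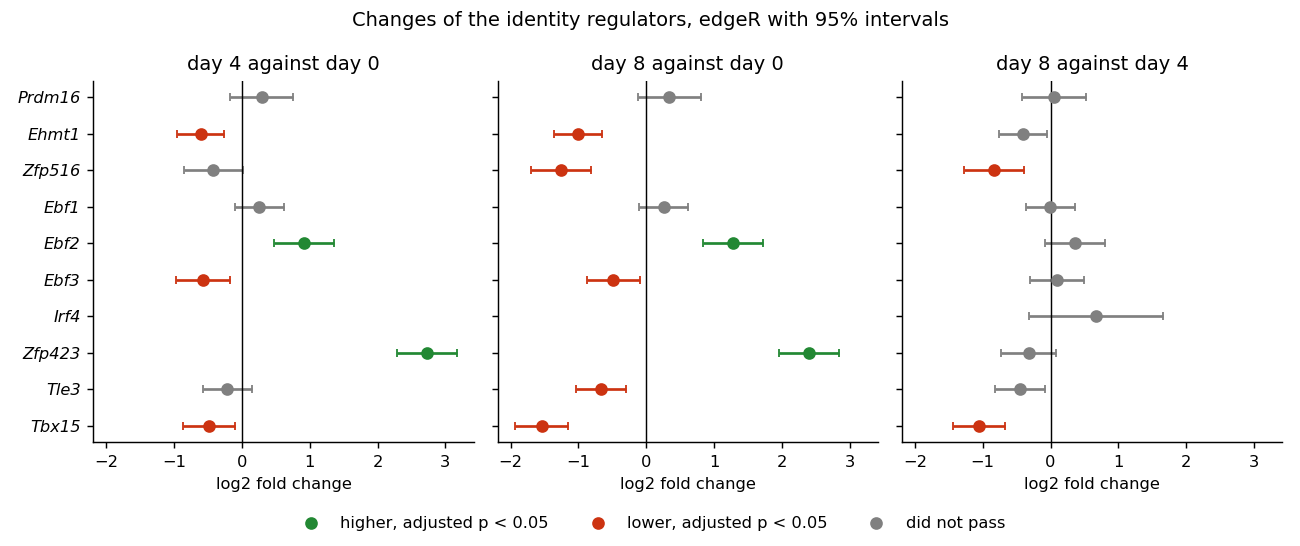
Log2 fold changes (horizontal axis) of the members in the 3 comparisons from edgeR, with 95% intervals derived from the fit of all 9 libraries, 3 per day; green and red passed as higher and lower, grey did not pass. Irf4 is drawn only for day 8 against day 4, because its fold against 2 counts at day 0 depends on the prior count.

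Levels of different members compare only per exon length. At day 0 the order of mean CPM per kb was Tbx15 (23.3), Tle3 (8.46), Ebf1 (6.91), Zfp516 (5.35), Ehmt1 (4.64), Ebf3 (2.11), Ebf2 (1.70), Zfp423 (0.836), Prdm16 (0.585) and Irf4 (0.00367). Tle3 and Ebf1 overlapped there, as did Zfp423 and Prdm16. At day 8 it was Ebf1 (8.26), Tbx15 (8.01), Tle3 (5.32), Zfp423 (4.42), Ebf2 (4.13), Ehmt1 (2.30), Zfp516 (2.24), Ebf3 (1.51), Irf4 (1.16) and Prdm16 (0.742). Neighbours in the day 8 order overlapped for Ebf1 and Tbx15, Tle3 and Zfp423, Zfp423 and Ebf2, Ehmt1 and Zfp516, and Ebf3 and Irf4. Day 4 had Tbx15 (16.6), Ebf1 (8.27), Tle3 (7.28), Zfp423 (5.53), Zfp516 (4.00), Ebf2 (3.21), Ehmt1 (3.04), Ebf3 (1.41), Irf4 (0.728) and Prdm16 (0.715), with overlap between Ebf1 and Tle3, along the run from Zfp423 to Ehmt1, and between Irf4 and Prdm16. Prdm16 thus stood among the lowest of these transcripts on every day.

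Ratios within a library do not depend on the scaling between libraries. They compare the transcripts of a pair of members and do not measure the balance of the thermogenic and the white side. The log2 ratio of Prdm16 to Zfp423 counts went from 0.21 ± 0.57 (SD, n = 3) at day 0 to -2.20 ± 0.20 at day 4 and -1.84 ± 0.23 at day 8. The 3 day 0 libraries were all above the 6 later ones. The ratio of Prdm16 to Tle3 moved the other way, from -4.19 ± 0.32 to -3.66 ± 0.22 and -3.15 ± 0.13, with days 0 and 4 overlapping and day 8 above both.

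The ratio of Ebf2 to Ebf1 counts went from -2.50 ± 0.21 at day 0 to -1.49 ± 0.02 at day 8, with -1.88 ± 0.41 at day 4. Day 8 libraries lay close together and above all the rest. Ebf2 to Zfp423 went from 1.34 ± 0.26 to -0.49 ± 0.09 and 0.20 ± 0.26, with no overlap between days. Ebf1 to Ebf3 went from 1.78 ± 0.24 to 2.64 ± 0.21 and 2.53 ± 0.29, days 4 and 8 overlapping. Where groups did not overlap the two-sided exact permutation p was 0.1, the smallest that 3 against 3 libraries allow, and 0.136 after adjustment over the 15 tests, so none passed.

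**Figure D4:**
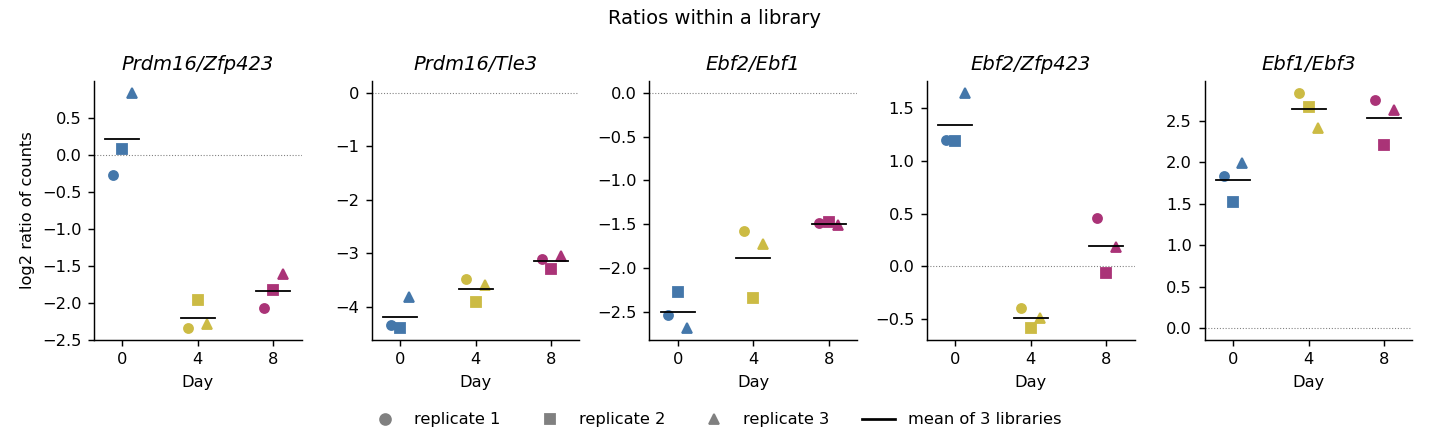
Log2 ratio of the counts of 2 members in the same library (vertical axis, own scale per pair) by day; each symbol is 1 library, the bar the mean of 3, and the dotted line equal counts. Prdm16/Zfp423 is lower in all later libraries than at day 0, and Ebf2/Ebf1 is highest at day 8.

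Relatives and partners of the members were described from lists of genes by function. The transcript of Ebf4, the family member with the least described role in fat, dipped and returned. It had 85, 64 and 74 counts at day 0, 10, 6 and 7 at day 4, and 76, 57 and 91 at day 8. No day 4 library came near the others. For Ebf4 the log2 fold change was -2.84 (SE 0.36, adjusted p = 8.04e-05) at day 4 against day 0, 3.12 (SE 0.36, adjusted p = 0.000489) at day 8 against day 4 and 0.28 (SE 0.30, adjusted p = 0.426) at day 8 against day 0.

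In the Groucho/TLE family, 1 of 5 relatives of Tle3 rose and 2 fell at day 4, and 2 rose and 2 fell at day 8 against day 0. Over all genes 54.6% (day 4) and 63.4% (day 8) were called, so with 5 genes these counts are not a result about the family. Tle1 rose from 15.4 ± 1.31 CPM at day 0 to 61.1 ± 5.67 at day 4 and stood at 40.0 ± 5.81 at day 8, a log2 fold change of 1.98 and then 1.37 against day 0 (adjusted p = 2.49e-06 and 2.29e-05). Tle2 fell from 11.6 ± 0.964 to 2.58 ± 0.321 CPM at day 8 and Tle6 from 10.4 ± 1.06 to 2.33 ± 0.908 CPM (adjusted p = 0.000541 and 0.000917). Tle2 at day 4 was -1.35, and -1.94 without replicate 2 of that day. Tle5, a truncated family member that counters the others, rose from 543 ± 32.6 to 945 ± 190 CPM at day 8 (0.80, SE 0.18, adjusted p = 0.00317). Tle3 and Tle1 were therefore called in opposite directions at day 8.

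Among 10 tested relatives of Prdm16 in the PRDM family, none was called higher and 4 fell at day 4, and 2 rose and 5 fell at day 8 against day 0. The background over all genes was 28.6% higher and 26% lower (day 4), then 33.5% and 29.9% (day 8). Prdm9 passed as higher at day 4 without day 4 replicate 2 (1.17, adjusted p = 0.0195), and with total counts 7 were lower at day 4 and 1 higher at day 8. Mecom, the paralog closest to Prdm16, fell from 2.81 ± 0.138 to 0.90 ± 0.256 CPM at day 8 (log2 fold change -1.64, SE 0.40, adjusted p = 0.00427). Prdm2, a histone methyltransferase, fell from 49.4 ± 1.13 to 22.7 ± 1.15 CPM (-1.12, SE 0.19, adjusted p = 0.000388). Prdm9, best known from meiosis, rose from 1.06 ± 0.176 to 6.39 ± 1.69 CPM (2.59, SE 0.52, adjusted p = 0.0013). Prdm15 was lower at day 4 and higher at day 8 in mean CPM (6.08 ± 0.530, 4.67 ± 0.683 and 9.76 ± 0.729), and its rise from day 4 to day 8 passed (1.06, SE 0.19, adjusted p = 0.00443).

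**Figure D5:**
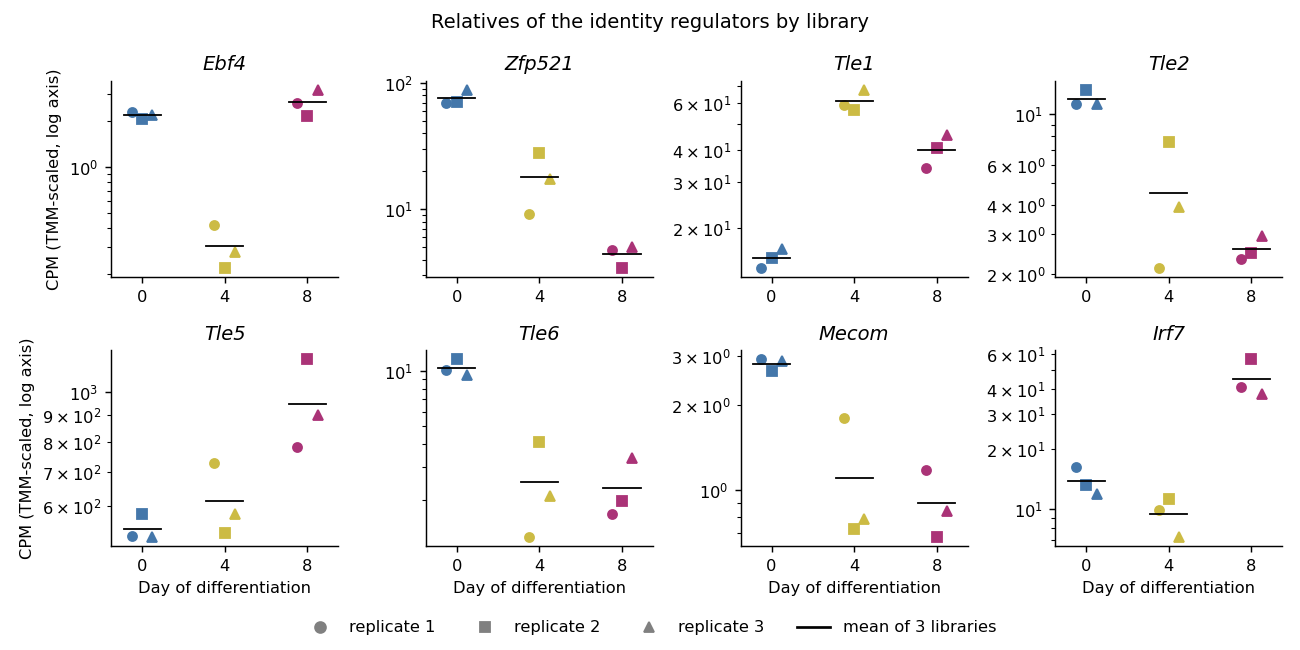
CPM on a log axis of 8 relatives of the members by day; each symbol is 1 library and the bar the mean of 3. Ebf4 drops at day 4 and returns, Zfp521, Tle2, Tle6 and Mecom end lower than they began, and Irf7 is highest at day 8.

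Of 7 tested relatives of Irf4, 1 rose and 2 fell at day 4, and 3 rose and 2 fell at day 8 against day 0, against 28.6% higher and 26% lower, and 33.5% higher and 29.9% lower, of all genes. The number lower at day 4 was 1 without day 0 replicate 1 or day 4 replicate 3 and 4 with total counts, and at day 8 it was 1 without day 8 replicate 3. Irf1, higher at day 8, lost that call with total counts (adjusted p = 0.25) and on leaving out day 0 replicate 1 (0.0661), day 0 replicate 2 (0.092) or day 8 replicate 2 (0.104). Irf7, the interferon regulatory factor of antiviral responses, was at 13.8 ± 2.28, 9.45 ± 2.06 and 45.3 ± 9.98 CPM on days 0, 4 and 8, a log2 fold change of 1.71 (SE 0.22, adjusted p = 6.56e-05) over the whole course. Irf3 rose by 0.74 and Irf9, a partner of STAT factors in interferon signalling, fell by 0.80 on the log2 scale at day 8 against day 0 (adjusted p = 0.00217 and 0.0145). The Irf9 call was lost without day 8 replicate 3 (adjusted p = 0.0574). At day 4 Irf7 narrowly missed the threshold against day 0 (-0.55, adjusted p = 0.0513). It passed as lower with DESeq2 (0.0415), RLE scaling (0.0433), total counts (0.00591), no filter on low counts (0.042) and the replicate block (0.0208), and on leaving out day 0 replicate 3 (0.0464), day 4 replicate 2 (0.016) or day 8 replicate 2 (0.0389). Irf8, a factor of myeloid and B cells, had 42, 16 and 78 counts on the 3 days, and its rise from day 4 to day 8 (2.14, adjusted p = 0.0316) was lost when 7 of the 9 libraries were left out in turn (0.0503 to 0.104).

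Of 9 tested relatives of Tbx15, 1 rose by day 4 and 3 by day 8 against day 0, and none was called lower. Those shares lie below the 54.6% and 63.4% of all genes called. Tbx18 passed as lower at day 4 without day 4 replicate 2 (-0.69, adjusted p = 0.0351), and with total counts 1 was lower at day 8. Eomes rose from 0.251 ± 0.0981 to 1.44 ± 0.249 CPM at day 8 (2.51, SE 0.52, adjusted p = 0.00166). Tbx1, a marker of beige cells, went from 1.33 ± 0.192 to 3.08 ± 1.96 CPM (1.21, SE 0.45, adjusted p = 0.0355), or 0.56 (adjusted p = 0.224) without day 8 replicate 2. Tbx1 also did not pass without any 1 day 0 library (0.0639 to 0.108), with the replicate block (0.0744) or with total counts (0.106).

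Ehmt1 was read beside 7 other histone methyltransferases and partners of its class. At day 4 1 of the 7 fell, Zfp644, and at day 8 against day 0 3 fell, Suv39h1, Wiz and Setdb1, with none higher in any comparison, where 26% and 29.9% of all genes were lower. The day 4 count was 2 with RLE scaling, the replicate block or without day 8 replicate 1, 3 without day 4 replicate 2 and 4 with total counts, and the day 8 count 7 with total counts. Wiz was among these at day 4, passing as lower with RLE scaling (adjusted p = 0.0464), total counts (0.00548) and the replicate block (0.0193), and on leaving out day 0 replicate 1 (0.0406), day 4 replicate 2 (0.00713) or day 8 replicate 1 (0.041). Wiz, a partner of the EHMT enzymes, fell from 58.7 ± 6.25 to 38.7 ± 5.27 CPM (-0.60, SE 0.16, adjusted p = 0.00695), and Suv39h1 by 0.90 on the log2 scale (adjusted p = 0.00944). The Setdb1 call (-0.41, adjusted p = 0.0251) was lost without day 0 replicate 1 (0.0583) or 3 (0.0741), day 8 replicate 1 (0.0638) or 2 (0.0708), and with no filter on low counts (0.0821). Zfp644 did not pass without day 0 replicate 1 (0.0977).

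Of 13 partners and cofactors of PRDM16, 6 rose and 4 fell in both comparisons with day 0, in which 54.6% (day 4) and 63.4% (day 8) of all genes were called. Without day 8 replicate 1 the number lower at day 8 was 2. Ppargc1a, which encodes the coactivator PGC-1α, rose from 0.154 ± 0.05 to 11.9 ± 4.46 CPM at day 8 (6.21, SE 0.48, adjusted p = 2.92e-06), and Ppara and Pparg rose by 5.67 and 3.57 on the log2 scale (adjusted p = 8.76e-07 and 4.22e-06). Ppargc1a passed the filter on low counts only through later days. Mecom was among the partners that fell (-1.64 at day 8 against day 0, adjusted p = 0.00427). Of 15 tested activators of brown and beige identity outside the members, 11 rose and 2 fell at day 4, and 11 rose and 1 fell at day 8 against day 0. Ppargc1a, Ppara and Cebpb are on this list and among the partners, so these counts partly repeat those of the partners. Over all genes 28.6% were higher and 26% lower at day 4, then 33.5% and 29.9% at day 8. The number of activators lower was 1 at day 4 without day 0 replicate 2 or 3, and 2 at day 8 without day 4 replicate 2 or day 8 replicate 1. Among those that rose was Hlx, a homeobox factor of beige fat, from 0.465 ± 0.219 to 5.36 ± 1.43 CPM (3.53, SE 0.37, adjusted p = 1.96e-05).

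The 12 tested further repressors were split, 5 higher and 4 lower at day 4, and 5 higher and 5 lower at day 8 against day 0. Over all genes 28.6% were higher and 26% lower at day 4, then 33.5% and 29.9% at day 8. Nr1h3, the oxysterol receptor LXRα, rose from 6.79 ± 1.00 CPM to 176 ± 26.2 CPM (4.69, SE 0.25, adjusted p = 3.32e-07) and the retinoblastoma gene Rb1 from 7.63 ± 0.647 to 67.9 ± 14.0 CPM (3.15, SE 0.30, adjusted p = 1.07e-05). Foxp1 fell from 77.0 ± 5.21 to 14.6 ± 5.03 CPM (-2.40, SE 0.23, adjusted p = 1.24e-05). Zfp423 and Zfp521, both described as brakes on the thermogenic program or on fat cell formation, thus ended on opposite sides of their day 0 levels.

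Genes of 2 lists, brown and beige selective targets and white selective genes, moved as well. Whether the members act on these genes was not tested. All 12 brown and beige selective targets rose in both comparisons with day 0 (11 at day 4 without day 0 replicate 1 or day 4 replicate 1, or with only those days fitted), among them Ucp1, at least 5254-fold higher at day 8 with the same floor. Ucp1 and Cox8b had no counts at day 0 and passed the filter on low counts only through later days. Genes so low at day 0 could only be called higher, which limits the reading of this count. Ppargc1a and Ppara, also on this list, were already counted among the partners and activators. Of 10 tested white selective genes 7 rose and 1 fell at day 4, and 4 rose and 3 fell at day 8 against day 0. The background over all genes was 28.6% higher and 26% lower (day 4), then 33.5% and 29.9% (day 8). From day 4 to day 8, 8 of the 12 thermogenic targets rose and none fell, while 1 of the 10 white selective genes rose and 5 fell, against 11.7% of all genes higher and 10.8% lower. Without day 8 replicate 1 the number of targets higher was 5, and the number of white selective genes lower was 3 on leaving out any of day 4 replicate 3 and replicates 1 and 2 of day 8. At day 4 against day 0, 2 white selective genes were lower without day 4 replicate 2 and 3 with total counts. Agt, the angiotensinogen gene, went from 5.80 ± 3.24 to 990.5 ± 380 and 245 ± 52.1 CPM, and Nnmt, a methyltransferase of white fat, from 55.5 ± 1.53 to 175 ± 22.9 and 68.0 ± 11.2 CPM. Slc7a10 was the white selective gene that rose from day 4 to day 8 (log2 fold change 1.52, SE 0.33, adjusted p = 0.0149). Retn, also higher at day 8 than at day 0, was not called between days 4 and 8. The 2 members that fell in that interval were Zfp516 and Tbx15.

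The genes with the profiles most like each member over the 9 libraries were sought among 12472 genes with a mean of at least 1 CPM. Likeness was the root mean square (RMS) difference of log2(CPM + 0.1) after each profile was centred on its own mean. Among the closest to Ebf2 was Sh3glb1 (RMS 0.0694), and closest to Tle3 were Gcn1 (0.0697) and Eef2 (0.0767). Ehmt1 was nearest to Mfap3 (0.0777) and to Prdm4 (0.0952), itself a PRDM gene. Prdm16 was nearest to Pias4 (0.0984) and Ddx41 (0.101), Ebf1 to Jcad (0.0933) and Mettl25 (0.121), and Ebf3 to Six5 (0.131) and Mak16 (0.135).

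Zfp516 was nearest to Mob3c (0.106) and Afap1 (0.113), and Tbx15 to Akap13 (0.109) and Aff1 (0.128). Zfp423 had Timm9 (0.16) and Glrx5 (0.163) as nearest profiles. Irf4 had the least close neighbours, Slc6a13 (0.209) and Lncbate6 (0.257). No member was the nearest profile of another.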

How the data were processed

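Mouse iWAT adipocyte precursors were measured by RNA-seq of total RNA from cleared detergent lysates, with a stranded kit (the lysis buffer held cycloheximide), per the labels' protocols. The authors deposited raw counts of reads per gene, and the submitters' processing notes name HISAT2, featureCounts and build GRCm39. Versions, strand setting and annotation release are not given in the sources used here. Groups and replicate numbers came from the labels.

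The analysis used edgeR 4.0.16 in R 4.3.3: filterByExpr (minimum count 10, total 15), TMM scaling, and 1 quasi-likelihood fit of all 9 libraries with 6 residual degrees of freedom. Two-sided tests were adjusted by Benjamini-Hochberg over the 14649 tested genes at a threshold of 0.05. DESeq2 1.42.0, 2 other scalings, no filter, the compared days alone, a replicate block and leaving out each library were alternatives. Intervals and floors cover counting error only where so named. Ratios added 0.5 to each count, with 1 as the alternative. Exon lengths and overlaps came from GENCODE M21. A floor of 3 counts is 0.0809 to 0.125 CPM per library. All 9 same-day library pairs differed beyond sampling noise (chi-square over its degrees of freedom, 15.5 to 229).

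The members and lists were chosen with earlier results of these data known. All members were named; of each list, up to 4 called genes with the largest change, with Ehmt2, not called, chosen for contrast after its values were seen; of likeness, the nearest 2 (1 gene near Ebf2 and 1 marker gene are not reported here); and any transcript named as a member followed by os.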

Additional observations from a re-analysis of the deposited data

How the results depend on the processing

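Over 15 alternatives, 424 values of member fold changes kept their side of the threshold, 18 lost the call and 8 gained it, and no call reversed. The number of genes called between day 4 and day 8 was 3285, and 1901 when only those days were fitted, where fewer libraries estimate the spread. Leaving out 1 library gave 1894 (day 4 replicate 3) to 4185 (day 4 replicate 1), with 2107 without day 8 replicate 1 and 2012 without day 8 replicate 2. The number of members called there was 2, and ranged from 1 (without day 4 replicate 3) to 4 (without day 4 replicate 1). Leaving out 1 library gave 4 to 7 members called at day 4 against day 0 and 7 or 8 at day 8 against day 0. With total counts 35.3% of calls at day 4 and 37.5% at day 8 against day 0 were higher, against 52.4% and 52.9% with TMM.

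Whether the replicate numbers pair the libraries was not settled. Of 9 same-numbered pairs 2 correlated above 0.1 (from -0.13 to 0.289), and 5 of 9 libraries correlated best with their own number. Between days 0 and 8 the same-numbered pairs (0.289, 0.151 and 0.0923) were above every differently numbered pair (highest 0.0366). Pairs with day 4 showed no such separation. The fit with the replicate block called 8070, 9368 and 3105 genes and 5, 8 and 3 members in the 3 comparisons. All 150 ratio alternatives moved by less than 1 SD, the larger SD of the days compared. Leaving out 1 of 3 libraries cannot move a group mean that far, so this does not measure how stable the ratios are. Of the counts of called list genes, 86 moved by over 1.5 times and 904 did not. Irf4 at day 0 is limited by depth, with 2 counts in 3 libraries.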
